A study of Mus musculus with 6 samples.

Results

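Fibroblasts of peripheral nerve were followed here through 9 marker genes, Pi16, Dpp4, Clec3b, Pdgfra, Dcn, Lum, Sox9, Etv1 and Osr2, taken by gene symbol from the count tables. All 9 were among the 24421 genes listed, and all 9 passed the filter on low counts that left 14789 genes. RNA was taken from the sciatic nerve, which supplies the mouse hind limb, in 3 libraries labelled as a conditional double knockout of YAP and TAZ (YAP/TAZ-DBL-cKO, here cKO) and 3 libraries labelled YAP/TAZ-WT (here WT). Both proteins are co-activators of TEAD transcription factors at the end of the Hippo pathway. The labels used here give neither the Cre driver, the deleted exons nor the age of the mice, and do not say whether nerves were pooled.

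A nerve holds fibroblasts in separate layers. The epineurium, the outer sleeve, carries large collagen bundles, vessels and fat, while the endoneurium is the loose matrix between the axons and their Schwann cells, and the perineurium lies between them. Pi16, Dpp4 and Clec3b are known from fibroblasts of the epineurium and of adventitia in other organs. Sox9, Etv1 and Osr2 encode transcription factors known from endoneurial fibroblasts. Pdgfra, Dcn and Lum are shared by fibroblasts of both layers and are called pan-fibroblast markers here.

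The libraries held 24651262 to 32003497 gene counts in cKO and 41270894 to 47044158 in WT, so every WT library was the deeper. The lowest count of any of the 9 markers in any library was 444, and depth therefore limited none of them. Of all tested genes, 706 were higher and 912 lower in cKO at an adjusted p under 0.05 (edgeR quasi-likelihood test, Benjamini-Hochberg adjustment), or 1273 and 606 when libraries were scaled by total counts only. Over all genes the median log2 fold change was 0.15 with that scaling and 0.02 with the TMM factors used below. Of the targeted genes, Yap1 averaged 106.5 ± 3.41 CPM (counts divided by library size, with TMM scaling factors) in cKO and 121.9 ± 1.69 CPM in WT (SD, n = 3 each; edgeR adjusted p = 0.145), and Wwtr1, which encodes TAZ, averaged 358.8 ± 18.7 CPM in cKO and 271.2 ± 15.6 CPM in WT and rose (edgeR adjusted p = 0.0208). A count over a whole gene in whole nerve does not show a deleted exon in 1 cell type, and it gave no check of the labels. Every library also held both Xist (133.9 to 258.0 CPM), a transcript of female cells, and the Y-linked Ddx3y (8.93 to 47.96 CPM). Each library thus held transcripts of both sexes. Ddx3y averaged 17.8 ± 8.41 CPM in cKO and 37.7 ± 14.8 CPM in WT, with overlap (edgeR adjusted p = 0.121). The mix of sexes in a library was not tested. All directions follow the labels alone. Library WT 3 stood apart from WT 1 and WT 2: all 9 fibroblast markers were higher in it than in either, and so were 8 of 8 tested adipocyte markers.

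The start-site regions of the markers were looked at first for the letters bound by TEAD factors. RefSeq windows of 300 bases (250 before to 50 after a start site, GRCm38.p6) were at hand for 4 of the 9 genes, Pi16, Dpp4, Pdgfra and Etv1, with a pair of start sites for Etv1. The TEAD core GGAATG, searched on both strands, occurred in 2 of these 5 windows, against 14.7% of all 32851 windows. Both matches are shown because they lie at genes on opposite sides of the comparison, Dpp4 of the epineurial and Etv1 of the endoneurial markers; lower case is flanking sequence and capitals are the match, read 5′ to 3′ along the gene.
Dpp4, chr2:62412336-62412357, minus strand: caagtgaaCATTCCccagggag
Etv1, chr12:38779996-38780017, plus strand: caacgctaGGAATGagaactgg
The Dpp4 match is the core read on the opposite strand and begins 118 bases before the start site, and that of Etv1 begins 78 bases before the first of its RefSeq start sites. GENCODE places the start of the Etv1 gene further upstream, at 38779380, so by that annotation the match lies inside the gene. Neither letters nor their absence at Pi16 and Pdgfra say whether a factor binds there.

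Of the 3 epineurial markers, Pi16 and Clec3b rose in cKO nerve, 1.73-fold and 1.59-fold, and the 1.36-fold difference of Dpp4 did not pass the test. Of the endoneurial markers, Etv1 rose 1.36-fold, and Sox9 and Osr2 were not called. None of the pan-fibroblast markers was called. In all, 3 of the 9 markers rose and 0 fell, where 4.77% of all tested genes were called higher and 6.17% lower (10.9% in all). The groups did not overlap for these 3 markers, all with cKO above WT, as for 15.3% of all tested genes (15.8% had cKO below WT, 31.1% either). DESeq2 and limma-voom also called 0 markers lower, and no marker with a negative fold change had an unadjusted edgeR p under 0.05. In bulk tissue, fewer cells of a type and less RNA per cell cannot be told apart.

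**Figure D1:**
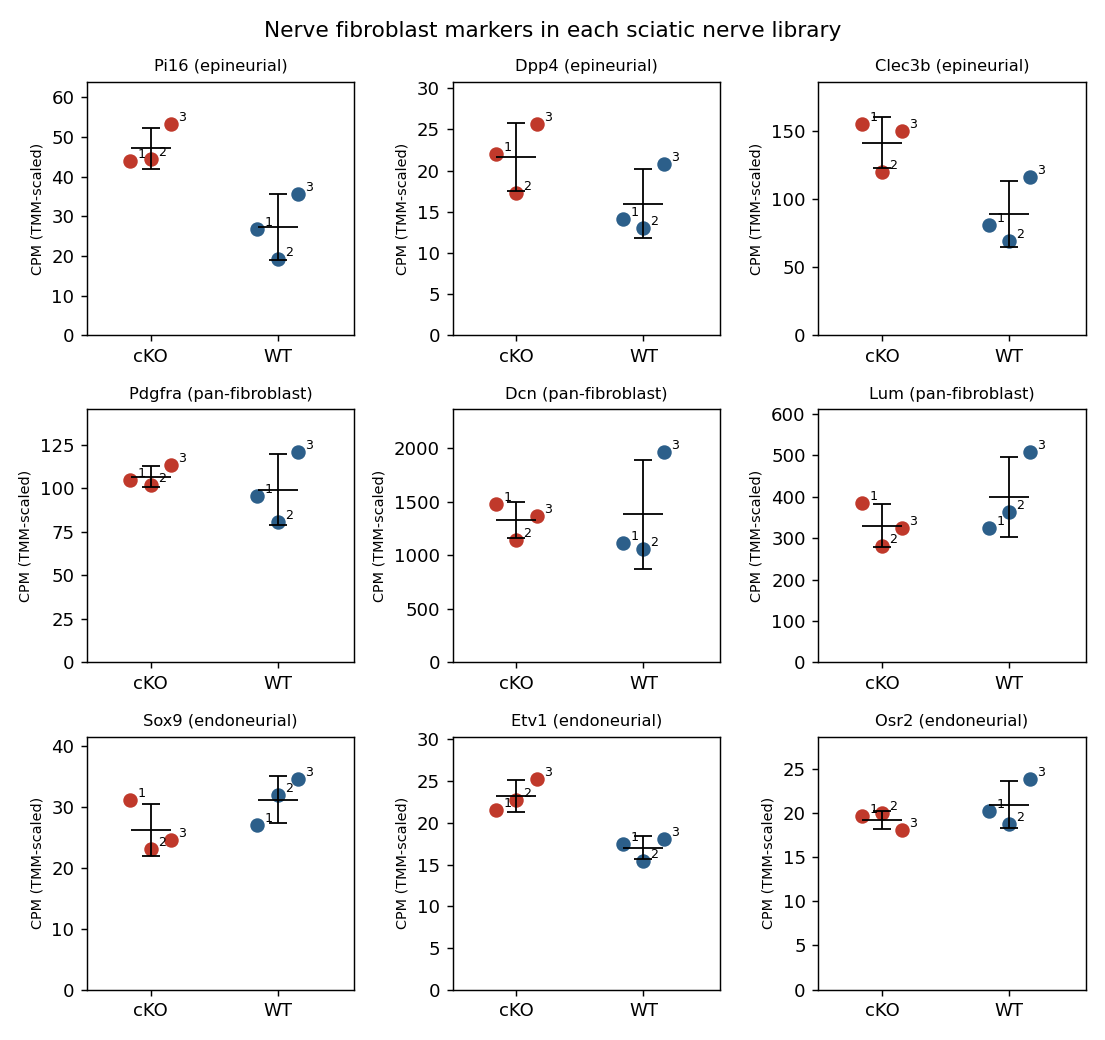
TMM-scaled CPM of the 9 markers in each library (points, numbered by replicate), with mean and SD of the 3 cKO and the 3 WT libraries. The groups are separate for Pi16, Clec3b and Etv1, and WT 3 is the highest WT library in every panel.

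Pi16 encodes a secreted peptidase inhibitor and lies on mm10 chromosome 17 (29317680 to 29330593, plus strand). It stood at 43.9, 44.5 and 53.2 CPM in cKO 1, 2 and 3, against 26.9, 19.1 and 35.7 CPM in WT 1, 2 and 3. Every cKO library was above every WT library, and WT 3 came closest. On the log2 scale cKO exceeded WT by 0.79 ± 0.20 (SE, n = 3 per group; edgeR adjusted p = 0.0366). Clec3b, on chromosome 9 (123150946 to 123157432, plus strand), encodes tetranectin, a secreted plasminogen-binding protein. It stood at 154.4, 119.5 and 149.4 CPM in cKO libraries and at 80.9, 69.2 and 116.0 CPM in WT libraries. These groups were also separate, but only just, with cKO 2 next to WT 3. The difference was 0.67 ± 0.18 on the log2 scale (edgeR adjusted p = 0.0496).

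Dpp4 encodes a membrane dipeptidyl peptidase (CD26) and lies on chromosome 2 (62330073 to 62412231, minus strand). It had 22.04, 17.3 and 25.6 CPM in cKO libraries and 14.1, 13.05 and 20.8 CPM in WT libraries, so that WT 3 lay above cKO 2. The log2 fold change of 0.44 ± 0.21 did not pass (edgeR adjusted p = 0.229), and without WT 3 it was 0.65 ± 0.17 and passed (edgeR adjusted p = 0.0375). Dpp4 is also carried by T cells, whose 5 tested markers summed to 2.73 to 8.49 CPM in cKO and 1.19 to 1.89 CPM in WT, with Cd3e and Cd8a too low to be tested. Among them only Cd3g was called, at 0.603, 2.26 and 0.502 CPM in cKO and 0.0865, 0.0250 and 0.126 CPM in WT. These WT values rest on very few reads, since 3 counts make about 0.0638, 0.0727 and 0.0696 CPM in WT 1, 2 and 3. Cd3g was highest in cKO 2, and its call was lost without cKO 2, WT 1 or WT 2. The part of T cells in the Dpp4 values was not tested.

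The 3 calls were close to the threshold and did not survive the loss of most single libraries. With cKO 1, cKO 2, cKO 3, WT 1 or WT 2 left out, 0 of the 9 markers was called. Calls also fell over all tested genes, of which 3.98%, 2.62%, 1.83%, 3.00% and 2.74% were called higher in those fits. With all 6 libraries the share was 4.77%. Without WT 3, 4 markers were called, namely Pi16, Dpp4, Clec3b and Etv1 (7.19% of all genes were called higher in that fit). The direction of Pi16 and Clec3b was the same in all 6 fits, with log2 fold changes of 0.59 to 1.01 for Pi16 and of 0.52 to 0.89 for Clec3b. Their highest adjusted p-values in these fits were 0.155 and 0.178 by edgeR.

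**Figure D2:**
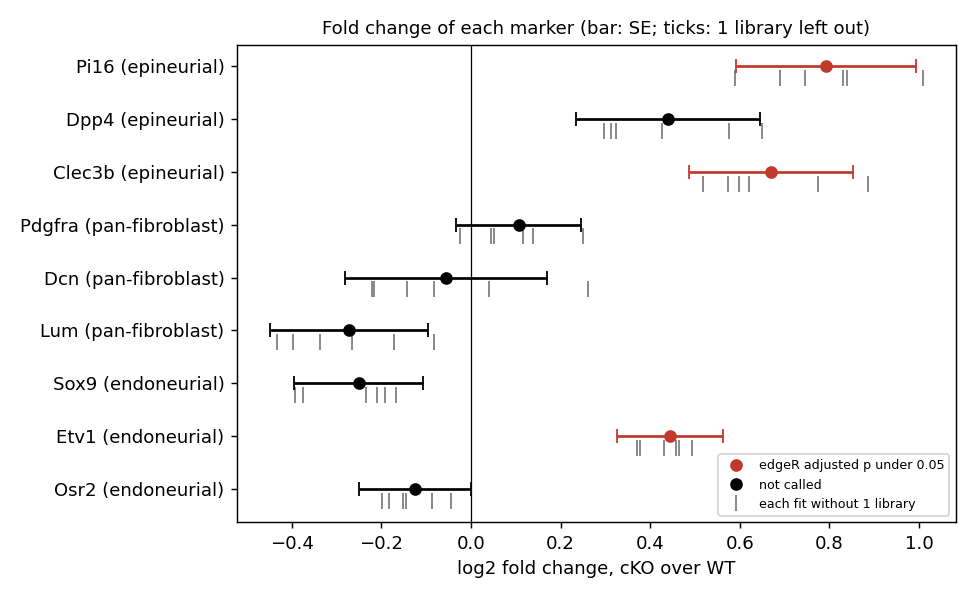
Log2 fold change of each marker, cKO over WT, with its SE, and the values from fits that left out 1 library (grey ticks). Pi16, Dpp4, Clec3b and Etv1 are positive in every such fit, Lum, Sox9 and Osr2 negative in every one, and Pdgfra and Dcn lie on both sides of 0.

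The pan-fibroblast markers differed by less than the spread between libraries. Pdgfra encodes the alpha receptor for platelet-derived growth factor (chromosome 5, 75152292 to 75198215). It had 104.8, 101.7 and 113.5 CPM in cKO and 95.5, 80.7 and 121.1 CPM in WT, or 0.11 ± 0.14 as a log2 fold change (edgeR adjusted p = 0.714). The cKO values lay wholly inside the range of the WT values. Dcn and Lum encode decorin and lumican, small leucine-rich proteoglycans that bind collagen fibrils, and they are neighbours on chromosome 10 (97479609 to 97518143 and 97565128 to 97572703, both plus strand). Dcn stood at 1482, 1146 and 1368 CPM in cKO and at 1120, 1065 and 1970 CPM in WT, or -0.06 ± 0.23 as a log2 fold change (edgeR adjusted p = 0.923), which became 0.080 with total counts and 0.26 without WT 3. Lum stood at 385.0, 281.9 and 325.0 CPM in cKO and at 325.7, 363.7 and 508.9 CPM in WT, or -0.27 ± 0.18 as a log2 fold change (edgeR adjusted p = 0.395). For both genes WT 3 was the highest of all 6 libraries.

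The endoneurial transcription factors did not move together. Sox9 (chromosome 11, 112782224 to 112787760), a SoxE factor of cartilage, neural crest and fibroblasts, had 31.1, 23.0 and 24.5 CPM in cKO and 27.0, 31.9 and 34.6 CPM in WT. The groups overlapped through cKO 1, and cKO differed from WT by -0.25 ± 0.14 on the log2 scale (edgeR adjusted p = 0.336). Osr2 (chromosome 15, 35296098 to 35303305), an odd-skipped zinc finger factor, had 19.7, 19.9 and 18.0 CPM in cKO and 20.2, 18.8 and 23.9 CPM in WT. The log2 difference of -0.12 ± 0.13 did not pass (edgeR adjusted p = 0.614) and was 0.0040 with total counts.

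Etv1 (chromosome 12, 38779380 to 38870484, plus strand), an ETS factor, went the other way. It had 21.5, 22.7 and 25.3 CPM in cKO and 17.5, 15.5 and 18.1 CPM in WT. The groups were separate, with the smallest relative spread within groups among the 3 called markers, and cKO exceeded WT by 0.44 ± 0.12 on the log2 scale (edgeR adjusted p = 0.0454). In the fits that left out 1 library it ran between 0.37 and 0.49, and its highest edgeR adjusted p was 0.196, without cKO 3. Etv1 is also known from muscle spindles and sensory neurons. Every cKO library held more skeletal muscle transcript than any WT library, and the part of muscle in the Etv1 values cannot be told apart from that of the genotype.

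Etv4 and Etv5 are the closest relatives of Etv1. Etv5 averaged 69.1 CPM in cKO and 46.5 CPM in WT and rose (log2 0.57 ± 0.13, edgeR adjusted p = 0.0207), a call lost without cKO 2 or cKO 3. Etv4 averaged 14.3 CPM in cKO and 9.95 CPM in WT and just missed the threshold (log2 0.52 ± 0.15, edgeR adjusted p = 0.0526). Among the other relatives, Osr1 (log2 0.53 ± 0.19), Sox5 (0.64 ± 0.19) and Sox10, the SoxE factor of Schwann cells (-0.17 ± 0.14), were not called. By edgeR that made 1 of 7 relatives higher and 0 lower, where 4.77% and 6.17% of all tested genes were. With total counts 4 were higher (8.61% of all tested genes) and without WT 3 there were 2 (7.19%). Without cKO 2, without cKO 3 or with muscle level as a covariate there were 0, where 2.62%, 1.83% and 0.0338% of all tested genes were called higher. DESeq2 called 3 higher (5.42%) and limma-voom 2 (4.95%). The median log2 fold change of the 7 was 0.52, where all tested genes had 0.02.

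Set against each other within a library, the marker groups give a balance from which library size cancels. The mean log2 CPM of Pi16, Dpp4 and Clec3b exceeded that of Sox9, Etv1 and Osr2 by 1.17, 1.05 and 1.39 in cKO 1, 2 and 3 and by 0.56, 0.30 and 0.84 in WT 1, 2 and 3. The cKO libraries were all above the WT libraries, and the difference of the means was 0.64 on the log2 scale, a 1.55-fold shift, with SDs of 0.18 in cKO and 0.27 in WT. It ran between 0.50 and 0.77 with any 1 library left out and between 0.50 and 0.85 with any 1 of the 6 genes left out. No test is given, since the genes were chosen with earlier results of these data known.

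Between the groups it was the epineurial mean that differed. The endoneurial mean was 4.50 ± 0.06 log2 CPM in cKO and 4.48 ± 0.13 log2 CPM in WT, while the epineurial mean was 5.70 ± 0.19 in cKO and 5.04 ± 0.39 in WT. The endoneurial mean joins Etv1, which rose, with Sox9 and Osr2, whose log2 fold changes were negative. The epineurial means were separate only narrowly, at 5.50 in cKO 2 and 5.47 in WT 3. Relative to the pan-fibroblast mean, the epineurial markers were at -2.88, -2.82 and -2.65 in cKO and at -3.38, -3.60 and -3.49 in WT. In this measure WT 3 lay between WT 1 and WT 2, and the groups were further apart than their spread (0.70 between means, SDs of 0.12 and 0.11). The endoneurial markers relative to the pan-fibroblast mean were -3.99 ± 0.10 in cKO and -4.06 ± 0.23 in WT, which overlapped.

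**Figure D3:**
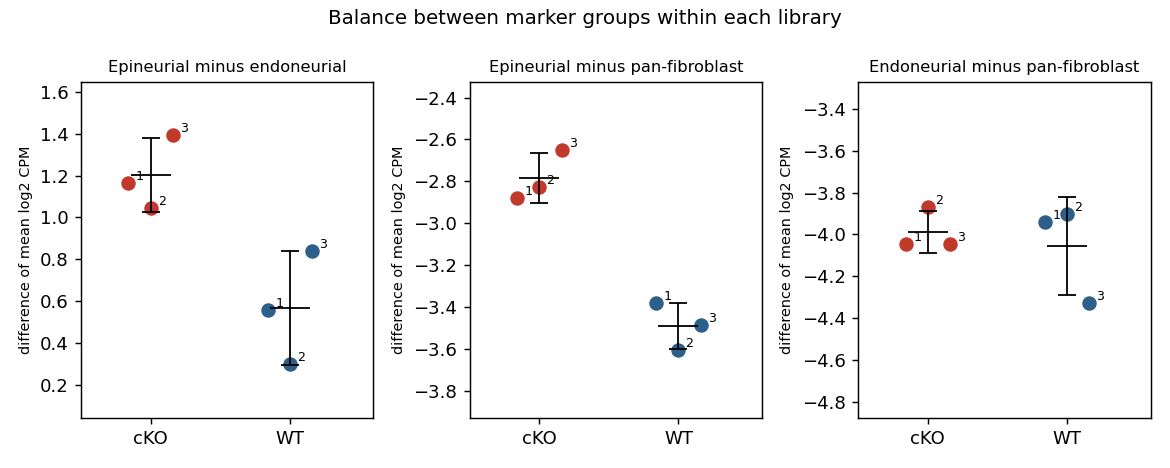
Difference between the mean log2 CPM of 2 marker groups within each library (points, numbered by replicate), with mean and SD per group. cKO lies above WT in the left panel by 0.64 and in the middle panel by 0.70 on the log2 scale, and the groups overlap in the right panel.

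Single ratios of raw counts showed which genes carry the shift. The ratio of Pi16 to Sox9 counts was 1.41, 1.93 and 2.17 in cKO and 0.99, 0.60 and 1.03 in WT, a 2.13-fold difference. That of Clec3b to Lum was 0.40, 0.42 and 0.46 in cKO and 0.25, 0.19 and 0.23 in WT, a 1.94-fold difference. Of the 9 ratios of an epineurial to an endoneurial marker, 5 were higher in every cKO library than in every WT library. The 3 ratios to Etv1 were among the 4 that overlapped. Of the 9 ratios of an epineurial to a pan-fibroblast marker, 8 were separate, all but Dpp4 to Pdgfra. Of the 9 ratios of a pan-fibroblast to an endoneurial marker, 1 had cKO above WT, 2 had cKO below WT and 6 overlapped. All these ratios share genes and are not independent. The share of separate ratios over all pairs of genes was not computed, and 31.1% of single genes were separate. The ratio of Sox9 to Etv1 was 1.44, 1.01 and 0.97 in cKO and 1.55, 2.06 and 1.91 in WT, so the endoneurial markers also shifted among themselves.

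Fat and muscle transcripts varied between the libraries beside the epineurial markers. The 8 tested adipocyte markers summed to 321.3, 378.2 and 479.0 CPM in cKO and to 96.3, 92.8 and 490.8 CPM in WT, with WT 3 at the level of the cKO libraries. None was called (0 of 8, also with DESeq2 and limma-voom, and 0 at an unadjusted edgeR p under 0.05; Fabp4 averaged 302.7 CPM in cKO and 168.9 CPM in WT), and Ucp1 was too low to be tested. That count rests on WT 3: without it all 8 were called higher (7.19% of all tested genes were), and their median log2 fold change was 2.84, against 0.67 with it. With the adipocyte level as a covariate, the log2 fold changes were 0.55 ± 0.16 for Pi16, 0.48 ± 0.16 for Clec3b and 0.37 ± 0.13 for Etv1, and no marker was called (edgeR adjusted p = 0.0659, 0.0943 and 0.115). The 14 skeletal muscle markers summed to 3452, 7947 and 4689 CPM in cKO and to 1339, 343.1 and 1272 CPM in WT. Of these, 12 were called higher (4.77% of all tested genes were), Ttn and Neb with the smallest p. When the muscle level entered as a covariate the SEs grew, and Pi16 had a log2 fold change of 0.07 ± 0.34, Clec3b of 0.38 ± 0.38 and Etv1 of 0.18 ± 0.25, none of them called. Of all tested genes, 0.0338% were called higher with muscle level as a covariate and 4.63% with adipocyte level. Muscle level and genotype separate the same libraries and cannot be told apart.

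**Figure D4:**
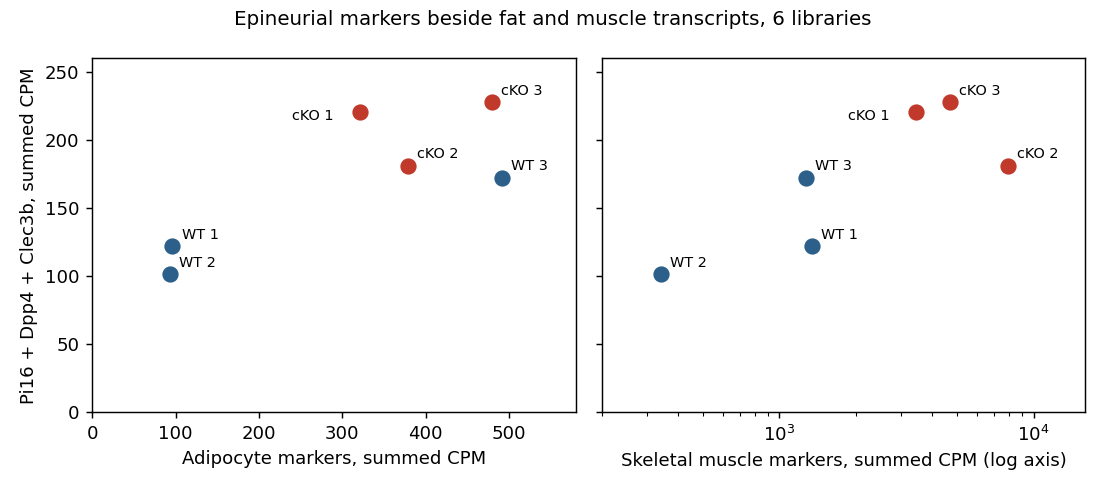
Summed CPM of Pi16, Dpp4 and Clec3b in each library against summed CPM of adipocyte markers (left) and of skeletal muscle markers (right, log axis). WT 3 has 490.8 CPM of adipocyte markers, as much as the cKO libraries, and every cKO library has more muscle transcript than any WT library.

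For vessel and immune markers the calls also depended on WT 3. Of 8 endothelial, 7 mural and 8 macrophage markers 0 were called, at summed levels of 443.3 to 531.4, 294.6 to 354.8 and 371.5 to 405.1 CPM in cKO and of 321.5 to 524.9, 163.8 to 317.4 and 309.8 to 429.0 CPM in WT, where WT 3 was the highest WT library each time. At an unadjusted edgeR p under 0.05 there were 2 endothelial, 3 mural and 3 macrophage markers, all higher in cKO, led by Cdh5, Abcc9 and C1qa. The share of all tested genes at that unadjusted threshold was not computed. It cannot be lower than the 10.9% called after adjustment. DESeq2 and limma-voom called 1 mural marker each and 0 of the others. Without WT 3, 5 endothelial, 5 mural and 2 macrophage markers were called higher, as were 7.19% of all tested genes. The Schwann cell factor Sox10 was present at 404.6 to 571.2 CPM in all 6 libraries, and Gfra3, a GDNF-family co-receptor of Schwann cells, fell (log2 -1.63 ± 0.24, edgeR adjusted p = 0.00366). Of 8 markers of dividing cells and 3 tested genes of red blood cells, 0 were called by any of the 3 tools. Even without adjustment 0 reached an edgeR p under 0.05. The dividing cell markers summed to 771.9 to 777.1 CPM in cKO and to 855.5, 865.8 and 454.5 CPM in WT 1, 2 and 3. Without WT 3, 1 of the 8 was called lower, as were 1120 of all 14941 genes tested in that fit. Their median log2 fold change was then -0.23, against 0.10 with WT 3. With adipocyte level as a covariate, 7 of the 8 were called higher (4.63% of all tested genes were). So were 2 of the 3 red blood cell genes, and 1 of the 3 was without WT 1 (3.00% of all tested genes were). The part of these cells in the fibroblast results was not tested.

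Other genes of epineurial and adventitial fibroblasts had mostly positive fold changes without passing. Of 20 such genes, 17 had a positive log2 fold change (53.7% of all tested genes did), with a median of 0.40 against 0.02 for all genes. However, 0 were called higher and 1 lower, where 4.77% and 6.17% of all tested genes were. At an unadjusted edgeR p under 0.05, 8 were higher, and the share of all tested genes at that threshold was not computed. DESeq2 called 3 higher (5.42% of all tested genes) and limma-voom 0 (4.95%). Fbn1, which encodes fibrillin, had 444.9 CPM on average in cKO and 361.4 CPM in WT (log2 0.30 ± 0.09, edgeR adjusted p = 0.0688). Ly6a (Sca-1) had a log2 fold change of 0.62 ± 0.20 and the pericyte and fibroblast antigen Cd248 of 0.40 ± 0.13, neither called. The one that fell was Efhd1, a mitochondrial calcium-binding protein, with 205.8, 285.7 and 244.4 CPM in cKO and 391.8, 446.1 and 408.7 CPM in WT (log2 -0.76 ± 0.13, edgeR adjusted p = 0.00631), a call lost with muscle level as a covariate (-0.82, edgeR adjusted p = 0.402). WT 3 was above both other WT libraries for 18 of the 20 genes. Without it 11 were called higher (7.19% of all tested genes), and with total counts 5 were (8.61%). When muscle level was a covariate, 12 of the 20 were positive, with a median of 0.08. With adipocyte level 15 were, with a median of 0.21. Neither fit called any of the 20 higher, where 0.0338% (muscle) and 4.63% (adipocyte) of all tested genes were.

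Further genes listed for endoneurial fibroblasts were mixed. Of 8, 2 rose and 1 fell (4.77% and 6.17% of all tested genes did), with a median of 0.13. The chemokine Cxcl14 had 48.1, 59.4 and 56.7 CPM in cKO and 21.6, 21.7 and 16.1 CPM in WT. The groups were far apart, and the log2 fold change of 1.46 ± 0.14 (edgeR adjusted p = 0.000606) kept its call in all 6 fits that left out 1 library, but not with muscle level as a covariate (1.49, edgeR adjusted p = 0.104). Cilp, a matrix protein first known from cartilage, had 18.0, 33.4 and 23.1 CPM in cKO and 6.77, 2.37 and 10.9 CPM in WT (log2 1.89 ± 0.45, edgeR adjusted p = 0.0287). Its call was lost without cKO 2, cKO 3 or WT 1, and with muscle level as a covariate its direction turned (-0.37). Gfra1, a co-receptor for the neurotrophic factor GDNF that Schwann cells also carry, averaged 48.4 ± 8.90 CPM in cKO and 69.2 ± 2.44 CPM in WT and fell (log2 -0.52 ± 0.13, edgeR adjusted p = 0.0335), a call lost without cKO 1, cKO 3 or WT 2. Spon1 was not called (log2 0.89 ± 0.27), and Wif1, a Wnt inhibitor of endoneurial cells, was low at 0.711 ± 0.120 CPM in cKO and 0.644 ± 0.152 CPM in WT.

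Some of the matrix genes of fibroblasts rose. Of 20 genes of collagen fibrils and elastic fibres, 5 rose and 0 fell (4.77% and 6.17% of all tested genes did), with a median of 0.17. With muscle level as a covariate 0 were called (0.311% of all tested genes were) and the median was 0.05. Fbln2 averaged 333.7 CPM in cKO and 229.6 CPM in WT (log2 0.54 ± 0.10, edgeR adjusted p = 0.0108) and Fbln5, which tethers elastic fibres to cells, 207.6 CPM in cKO and 144.7 CPM in WT (0.52 ± 0.12, edgeR adjusted p = 0.0238). Emilin1 (0.47 ± 0.09), Loxl1, a cross-linking oxidase of elastin (0.79 ± 0.19), and Mfap4 (0.73 ± 0.19) were the others. The major collagens were not called: Col1a1 averaged 6347 ± 481.6 CPM in cKO and 5812 ± 321.8 CPM in WT, and Col3a1 10134 ± 884.7 CPM in cKO and 10212 ± 2397 CPM in WT. With 1 library left out, the count of 5 became 1 (cKO 3 or WT 2), 2 (cKO 1 or WT 1), 3 (cKO 2) or 8 (WT 3). Over all tested genes, from 1.83% (cKO 3) to 7.19% (WT 3) were called higher in those fits.

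**Figure D5:**
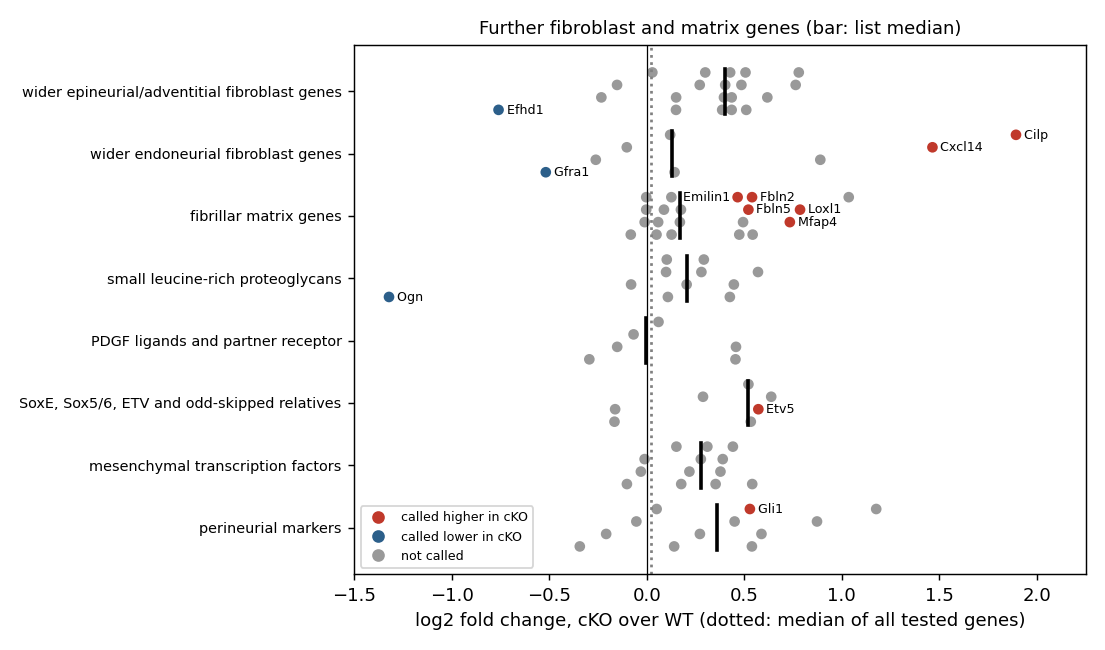
Log2 fold changes (cKO over WT) of the genes of 8 further lists, with list medians as bars and the median of all tested genes dotted. Most epineurial and adventitial genes lie right of 0 without being called, and Ogn, at -1.32, lies far from the other proteoglycans.

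Among relatives of Dcn and Lum, Ogn (osteoglycin) stood out. It had 292.1, 271.9 and 301.0 CPM in cKO and 577.4, 642.8 and 943.2 CPM in WT, a fall of 2.50-fold (log2 -1.32 ± 0.17, edgeR adjusted p = 0.00225) that was called in all 6 fits without 1 library, but not with muscle level as a covariate (-1.46, edgeR adjusted p = 0.195). Its neighbours on chromosome 13 were not called: Ogn lies at 49608046 to 49624501, Omd at 49582462 to 49592822, Aspn at 49544443 to 49567565 and Ecm2 at 49504810 to 49532789, all on the plus strand. Omd had a log2 fold change of 0.11 ± 0.22, Aspn of 0.20 ± 0.27 and Ecm2 of 0.10 ± 0.28, with signs that changed when single libraries were left out. Of 11 tested small leucine-rich proteoglycans besides Dcn and Lum, 1 fell and 0 rose (6.17% and 4.77% of all tested genes did), and Chad was too low to be tested. Bgn (biglycan) was separate between the groups without a call (log2 0.43 ± 0.15, edgeR adjusted p = 0.121). Without WT 3, 2 of the 11 rose, as did 7.19% of all tested genes.

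Ligands and the partner receptor of Pdgfra were not called. Of 6 genes 0 passed; Pdgfa, the main ligand of the alpha receptor, averaged 39.8 CPM in cKO and 48.9 CPM in WT (log2 -0.29 ± 0.09, edgeR adjusted p = 0.0854), and Pdgfb averaged 23.5 CPM in cKO and 17.2 CPM in WT (log2 0.45 ± 0.14, edgeR adjusted p = 0.0782). Only these 2 had an unadjusted edgeR p under 0.05, and the share of all tested genes at that threshold was not computed. DESeq2 called 1 of the 6 and limma-voom 0. Without WT 3 both were called, with 2 of the 6 higher (7.19% of all tested genes were) and 1 lower (1120 of 14941 tested genes were). The groups were separate for Pdgfb with cKO above WT and for 2 genes with cKO below WT, Pdgfa and Pdgfrb. Over all tested genes these shares were 15.3% and 15.8%. Pdgfrb had a log2 fold change of -0.15 ± 0.09. Among 13 tested transcription factors of mesenchyme 0 were called by any of the 3 tools, with a median of 0.28. At an unadjusted edgeR p under 0.05, again with no share computed over all tested genes, 3 were higher. Without WT 3 there were 3 called higher (7.19% of all tested genes). Twist1 had the smallest p (log2 0.54 ± 0.20, edgeR adjusted p = 0.127). Of 12 perineurial markers 1 rose and 0 fell, or 8.33% called against 10.9% of all tested genes. Gli1, a hedgehog target, was the one that rose (log2 0.53 ± 0.12, edgeR adjusted p = 0.0266, lost without cKO 3 or any 1 WT library). Tjp1, a tight junction protein, was at -0.34 ± 0.10 (edgeR adjusted p = 0.052).

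A cartilage collagen differed far more than Sox9, the factor known to drive it in chondrocytes. Col2a1 (chromosome 15, 97975602 to 98004695, minus strand) had 158.5, 161.4 and 149.3 CPM in cKO and 43.6, 48.7 and 37.8 CPM in WT. The groups were 3.61-fold apart (log2 1.85 ± 0.11, edgeR adjusted p = 0.000162), and the call was kept in all 6 fits without 1 library and with muscle level as a covariate (log2 2.10, edgeR adjusted p = 0.0199). Per Sox9 read, there were 5.10, 7.01 and 6.09 reads of Col2a1 in cKO and 1.61, 1.52 and 1.09 in WT. Of the 8 tested cartilage and tendon markers, 2 rose (4.77% of all tested genes did), Col2a1 and Acan. Acan was low at 3.05 CPM in cKO and 1.25 CPM in WT and lost its call in 5 of 6 fits without 1 library. Matn1 and Matn3 were too low to be tested, and Hapln1 was under 1.1 CPM in every library.

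Per kilobase of annotated exon, Dcn was the most abundant marker at 228.2 ± 29.3 CPM per kb in cKO and 237.2 ± 86.9 in WT, above 98.7% of 14233 genes with a known length. In cKO, Clec3b (142.2 ± 19.0 CPM per kb) and Lum (135.1 ± 21.1) followed and overlapped, then came Pdgfra (10.6 ± 0.61), Pi16 (7.41 ± 0.82) and Sox9 (6.33 ± 1.03), of which the last pair overlapped, Osr2 (5.30 ± 0.29), Dpp4 (3.43 ± 0.66) and Etv1 (1.74 ± 0.14). In WT the order was Dcn, Lum (163.2 ± 39.5), Clec3b (89.4 ± 24.6), Pdgfra (9.89 ± 2.04), Sox9 (7.54 ± 0.92), Osr2 (5.78 ± 0.73), Pi16 (4.28 ± 1.31), Dpp4 (2.53 ± 0.66) and Etv1 (1.28 ± 0.10). There the ranges of neighbours overlapped for Dcn and Lum and for each step between Pdgfra and Dpp4. Lum lay above Clec3b in WT with no overlap, while in cKO their ranges overlapped. Etv1 has 13296 bases of exon over all its annotated transcripts, so its level per kilobase is understated for any 1 transcript.

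The genes with the profile most like the epineurial mean over the 6 libraries, by root mean square difference of centred log2 CPM among 10331 genes, were Gap43 (0.0581), a growth-associated protein of axons and Schwann cells, Mndal (0.0763) and Sytl3 (0.0853). No p is given for likeness. The endoneurial mean was nearly flat, and closest to it were Eif3h (0.0238) and Eif5b (0.0267), which encode translation initiation factors, and Jdp2 (0.0241).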

How the data were processed

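Total RNA of sciatic nerve was made into TruSeq libraries, per the labels' protocols. The authors deposited raw counts of reads for each gene symbol, with a file for every sample; the submitters' processing notes name TopHat2 2.0.13, HTSeq and build mm10. No source used here gives the annotation or strand setting, so overlapping and antisense genes cannot be separated. HTSeq's closing lines (14.1% to 16.8% of all counts together) were left out.

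Genes passing filterByExpr (minimum count 10) were tested with edgeR 4.0.16 in R 4.3.3, with TMM factors, on all 6 libraries, the group as the only term and adjusted p under 0.05 as the threshold. SE is the log2 fold change over the square root of F. CPM are TMM-scaled; log2 CPM use a prior count of 2. The mice are taken as replicates from the design text; where nerves were pooled, p-values measure the spread between pools. Replicate libraries differed by far more than counting noise (chi-square per degree of freedom at least 12.9). Same-numbered libraries did not deviate together (correlations -0.21, -0.12 and 0.07).

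Positions and exon lengths are from GENCODE M21 (GRCm38, the assembly of mm10). Markers and lists were chosen with earlier results of these data known. Named genes are all 9 markers, those with the smallest p in each list (up to 4, or 2 for other cell types), any proteoglycan, PDGF or SoxE, ETV and odd-skipped relative, the targeted genes and the 3 nearest profiles for each layer; Mfap4, Col1a1, Col3a1, Wif1, Hapln1, Xist and Ddx3y were named after their values were seen. Alternatives were other scalings, DESeq2 1.42.0, limma-voom (limma 3.58.1), other filters, each library left out, a replicate block and muscle or adipocyte level as a covariate. On simulated counts for this comparison (14660 genes), log2 changes of 0.5 were called in 19 of 99 genes, of 1 in 68 of 99, and 15 of 14462 unchanged genes were called.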

Additional observations from a re-analysis of the deposited data

How the results depend on the processing

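The number of called genes (1618) was within 1.5 times under the other scalings, tests and filters; it ran from 735 to 2195 with 1 library left out and was 46 with muscle level as a covariate. The number of called markers (3) was 2 or 3 under those settings, ran from 0 to 4 with 1 library left out, and was 0 with either covariate. The replicate block, whose numbers do not pair the libraries, gave 1104 genes and kept Pi16 and Clec3b (edgeR adjusted p = 0.018 and 0.0219) but not Etv1 (0.0921). Clec3b missed with DESeq2 size factors (0.0571) and with the filter of 50 counts (0.0507), and Etv1 without a filter (0.055). The epineurial minus endoneurial difference was 0.28 when Pdgfra, Dcn and Lum joined the epineurial side. Among the 72 named genes, 953 of 1150 alternative values kept direction and call, 88 lost and 66 gained a call, and 43 changed sign. The signs that changed were those of small or uncalled differences, Cilp excepted. With total counts Dcn was 0.080 and Osr2 0.0040. With muscle level as a covariate Pdgfra was -0.29, Sox9 0.073, Cilp -0.37, Podn -0.66, Pdgfb -0.0017, Pdgfrl -0.25, Klf4 -0.14, Msln -0.50, Fabp4 -0.47, Plin1 -1.13, Pecam1 -0.16, Ecm2 -0.77, Sox10 0.047, Mndal -0.012, Sytl3 -0.042, Eif3h -0.0070, Jdp2 -0.0052 and Eif5b -0.0049. With the adipocyte level as a covariate Pdgfra was -0.065, Aspn -0.011, Ecm2 -0.26, Sox10 0.041, Eif3h -0.055, Jdp2 -0.010 and Eif5b -0.035. With 1 library left out Pdgfra ran from -0.024 to 0.25, Dcn from -0.22 to 0.26, Omd from -0.089 to 0.29, Aspn from -0.0080 to 0.54, Ecm2 from -0.13 to 0.53, Eif3h from -0.057 to 0.077, Jdp2 from -0.00080 to 0.10, Eif5b from -0.027 to 0.088, Hba-a2 from -0.13 to 0.86, Mki67 from -0.10 to 0.23 and Cdk1 from -0.12 to 0.31. The list counts under alternatives were added after seeing the data. The causes were not tested. In simulation changes of log2 0.5, near the size of the Dpp4 and Etv1 differences, were called in 19 of 99 genes. Only 99 genes of each size were changed there, against 1618 genes called here, so its adjusted threshold was stricter. That rate does not carry over to this fit. At 3 libraries a group, a missed call does not show that a gene was unchanged.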
